A study of Mus musculus with 4 samples.

Results

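The major urinary proteins (MUPs) are small secreted carrier proteins of the lipocalin family, and 10 of their genes were followed in the hepatocytes (HCs) of 4 single-cell libraries. The members were Mup1, Mup3, Mup7, Mup9, Mup11, Mup14, Mup16, Mup17, Mup20 and Mup21, which are 10 of the 55488 genes in the matrices. They were selected on measured values, their UMI levels in HCs of these same libraries, so their levels and ratios to WT are given as description, without a test. The study asked how the livers of mice react when the transcriptional co-activators YAP and TAZ are inactivated in the epithelium, and each library came from the liver of 1 mouse. The knock-out mice carried Alb-Cre, a Cre recombinase driven by the albumin promoter, with floxed Yap1 (YAPKO), floxed Wwtr1, the gene of TAZ (TAZKO), or floxed alleles of this pair (DKO). Deletion was thereby directed to HCs and biliary epithelial cells (BECs), and endothelial, immune and stellate cells were not targeted. The WT mouse was genetically unmodified. The fractions of HCs and of non-parenchymal cells were prepared apart from each other and mixed for loading, so the share of HCs in a library is not their share in the liver. Age, sex and strain of the sequenced mice were not given in the sources used here.

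MUPs are made in HCs, pass through the blood into the urine, and there bind and slowly release volatile pheromones that mice use for scent marking. Their genes form a cluster of closely similar copies, with near-identical genes in its centre and more divergent ones at its edges. In the mouse liver their transcription is higher in males and depends on the pulses of growth hormone, which act through the factor STAT5.

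All 10 members lie on the minus strand of chromosome 4 of GRCm38, in a span of 2.08 Mb from 60066469 to 62150863. Promoters of 7 members were found in a table from RefSeq (GRCm38.p6). Those of Mup1, Mup16 and Mup20 were not among them. The promoter of Mup7 lacked the motif TATATAAG, which the other 6 shared. The stretch of 128 bases that ends with this motif is shown for those 6. It was chosen because genes with nearly the same stretch had counted levels that moved in opposite directions. Which of these near-identical copies gave the UMIs is uncertain, as described below. The stretches are at chr4:60421976-60422103 (Mup9), chr4:60662390-60662517 (Mup11), chr4:61595850-61595977 (Mup17), chr4:61303979-61304106 (Mup14), chr4:62087321-62087448 (Mup3) and chr4:62150842-62150969 (Mup21), minus strand, 5′ to 3′, with the motif in capitals.
Mup9: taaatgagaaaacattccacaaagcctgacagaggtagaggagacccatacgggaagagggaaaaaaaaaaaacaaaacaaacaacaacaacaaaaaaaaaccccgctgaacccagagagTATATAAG
Mup11: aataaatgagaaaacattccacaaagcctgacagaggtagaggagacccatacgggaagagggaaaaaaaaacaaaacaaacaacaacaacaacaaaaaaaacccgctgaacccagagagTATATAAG
Mup17: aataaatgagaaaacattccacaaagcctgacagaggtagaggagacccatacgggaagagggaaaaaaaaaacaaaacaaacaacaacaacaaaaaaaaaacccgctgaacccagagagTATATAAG
Mup14: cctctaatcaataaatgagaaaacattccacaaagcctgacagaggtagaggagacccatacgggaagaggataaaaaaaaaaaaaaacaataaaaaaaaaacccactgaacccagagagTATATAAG
Mup3: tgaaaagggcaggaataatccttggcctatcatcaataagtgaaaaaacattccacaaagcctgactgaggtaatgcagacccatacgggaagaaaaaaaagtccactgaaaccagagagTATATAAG
Mup21: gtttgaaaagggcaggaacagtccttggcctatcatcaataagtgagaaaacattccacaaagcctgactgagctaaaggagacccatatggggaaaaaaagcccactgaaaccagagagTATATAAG

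In GENCODE release 21, the genes Mup3, Mup11, Mup14, Mup17 and Mup21 begin inside the printed stretch and Mup9 after its end. Mup11 and Mup17 were identical at 98.4% of aligned positions, Mup9 and Mup17 at 97.7%, and Mup9 and Mup11 at 96.1%. The stretches of Mup3 and Mup21 were 91.4% identical, and those of Mup3 and Mup9 64.1%. TATATAAG was read off these promoters, and on either strand it occurred in 1.01% of 32851 mouse promoters of the same length. The motif CCAAT occurred in 4 of the 7 members (Mup7, Mup11, Mup14 and Mup17) and in 37.4% of all promoters. TTCNNNGAA, the letters of a STAT motif, occurred in 0 of 7 members and in 8.3% of all promoters. TTGCNNCAA, a form of the C/EBP motif, occurred in 0 of 7 members and in 2.08% of all promoters. A match is a description, not a site or a cause, and a missing match says only that these letters are not in the window.

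The libraries differed in depth. The WT library held 13657 barcodes and 66259687 UMIs, the YAPKO library 7711 barcodes and 85989454 UMIs, the TAZKO library 14418 barcodes and 49022089 UMIs, and the DKO library 9188 barcodes and 77411746 UMIs. A UMI (unique molecular identifier) tags a captured transcript near its 3′ end, so a count is a number of molecules and was not divided by transcript length. Barcodes with 500 to 6000 genes and at most 10% mitochondrial UMIs were kept, and a kept barcode was taken as an HC where Alb, Apoa1, Ttr and Apoc3 together made up at least 3% of its UMIs. This rule gave 2254 HCs in WT, 1159 in YAPKO, 3112 in TAZKO and 2925 in DKO. The HCs held 19180146 UMIs in WT, 16905756 in YAPKO, 14371818 in TAZKO and 31451371 in DKO. By depth, the median HC had 2166.5 UMIs in WT, 6457 in YAPKO, 1854.5 in TAZKO and 6475 in DKO, so the HCs of WT and TAZKO were the shallower ones. Because the HCs are a class cut from a continuous share, the numbers near the limit matter: 52 HCs of WT, 94 of YAPKO, 138 of TAZKO and 297 of DKO lay between 3% and 4%. Another 97 barcodes of WT, 51 of YAPKO, 180 of TAZKO and 205 of DKO lay between 2% and 3% and were left out. Just inside the limit, Mup genes made up 5.79% of UMIs in WT, 3.76% in YAPKO, 1.33% in TAZKO and 2.47% in DKO, and just outside it 3.74%, 2.04%, 0.751% and 1.63%. Pairs of libraries shared between 10 and 67 barcodes, and between 0 and 5 HC barcodes.

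Levels are UMIs of a gene per 1000000 UMIs of the same cells (CPM) with exact 95% Poisson intervals, ratios to WT are log2 ratios with exact 95% conditional binomial intervals, and shares above 0 have exact 95% Clopper-Pearson intervals. For a share of 0, the limit given is 3 counts over the number of cells. All intervals cover counting error only. With 1 mouse per genotype there is no replicate check of any difference, and what is compared are libraries rather than genotypes. The 3 comparisons share the WT library.

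The targeted genes were examined first. Yap1 was at 21.2 CPM in HCs of WT, 4.55 in YAPKO, 46.3 in TAZKO and 4.67 in DKO. Wwtr1 was at 5.58 CPM in WT, 13.5 in YAPKO, 3.34 in TAZKO and 2.89 in DKO. Each gene was thus lowest in the pair of libraries labelled with its deletion, though the log2 ratio of Wwtr1 was only -0.74 (-1.26 to -0.24) in TAZKO and -0.95 (-1.37 to -0.53) in DKO. Because UMIs near the 3′ end may stem from a recombined allele too, these values check the labels only in part. In the kept barcodes outside the HCs, Yap1 was at 21.5 CPM in WT, 15.5 in YAPKO, 27.1 in TAZKO and 15.6 in DKO. Its log2 ratio there was -0.47 (-0.62 to -0.32) in YAPKO and -0.47 (-0.63 to -0.31) in DKO. Wwtr1 was at 75.2 CPM in WT, 60.9 in YAPKO, 59.2 in TAZKO and 64.1 in DKO. Yap1 was thus lower than WT in YAPKO and DKO outside the HCs too, and the cause was not tested.

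The HC label was checked against markers. The 4 genes of the rule summed to 87553 CPM in WT, 77892 in YAPKO, 80171 in TAZKO and 71043 in DKO, with Alb, the gene of serum albumin, as the most abundant in every library. No gene of the rule moved 2-fold in any library. Endothelial markers (5 genes) summed to 103 CPM in WT, 84.8 in YAPKO, 196 in TAZKO and 90.4 in DKO, led by Clec4g in WT, Ptprb in YAPKO and Dnase1l3 in TAZKO and DKO. Kupffer cell markers (5 genes) summed to 125, 110, 159 and 116 CPM in the same order of libraries, led by C1qb in WT and DKO, Clec4f in YAPKO and Cd5l in TAZKO. Neutrophil markers (4 genes), led by S100a9, summed to 234, 161, 44.1 and 41.3 CPM. B cell markers (4 genes), led by Cd79a, summed to 10.8, 10.9, 32.1 and 8.62 CPM. T and NK cell markers (5 genes) summed to 9.02, 3.31, 29.4 and 13.9 CPM, led by Nkg7 except in YAPKO, where Cd3d led. Stellate cell markers (5 genes), led by Dcn, summed to 16.6, 9.64, 25.5 and 22.4 CPM. Biliary markers (5 genes) summed to 51.3, 240, 52.3 and 30.0 CPM, led by Spp1 except in TAZKO, where Sox9 led. Krt7 had 0 UMIs in TAZKO and Krt19 had 0 in DKO, and no other gene of these lists was at 0. In the HCs of TAZKO, the sums of endothelial, Kupffer cell, B cell, T and NK cell and stellate cell markers thus stood above WT. Neutrophil markers were below WT in every knock-out library, most so in TAZKO and DKO, and Spp1 was above WT in YAPKO. Sums can hide single markers: in TAZKO, Sox9 was at 35.7 CPM against 11.5 in WT and Spp1 at 16.1 against 39.2. In DKO, Cd3d was at 4.48 CPM against 1.46 in WT and Reln, a stellate cell marker, at 2.86 against 0.574. Their part in the Mup values was not tested beyond HCs with at most 2 UMIs of non-parenchymal markers, in which the summed ratio of the members in TAZKO was -2.13.

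The sum of the 10 members was highest in WT and lower in every knock-out library. It was 112193 CPM (112044 to 112343) in WT, 57654 (57539 to 57768) in YAPKO, 26340 (26256 to 26424) in TAZKO and 48563 (48486 to 48640) in DKO. Mup RNA thus made up 11.2% of HC UMIs in WT, 5.77% in YAPKO, 2.63% in TAZKO and 4.86% in DKO. This gave, relative to WT, a log2 ratio of -0.96 (-0.96 to -0.96) in YAPKO, -2.09 (-2.10 to -2.09) in TAZKO and -1.21 (-1.21 to -1.21) in DKO. In folds, the sum was 1.95-fold lower in YAPKO, 4.26-fold lower in TAZKO and 2.31-fold lower in DKO. The direction was the same under all 12 alternatives run for each of the 3 ratios, which gave -1.27 to -0.79 in YAPKO, -2.71 to -1.66 in TAZKO and -1.59 to -0.91 in DKO. Over all genes with at least 100 UMIs in both libraries together, the median log2 ratio was 0.40 in YAPKO, 0.61 in TAZKO and 0.46 in DKO. Scaled to UMIs outside the Mup family, that median was 0.32, 0.47 and 0.36. The members' own median was -1.23 in YAPKO, -2.30 in TAZKO and -3.59 in DKO.

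**Figure D1:**
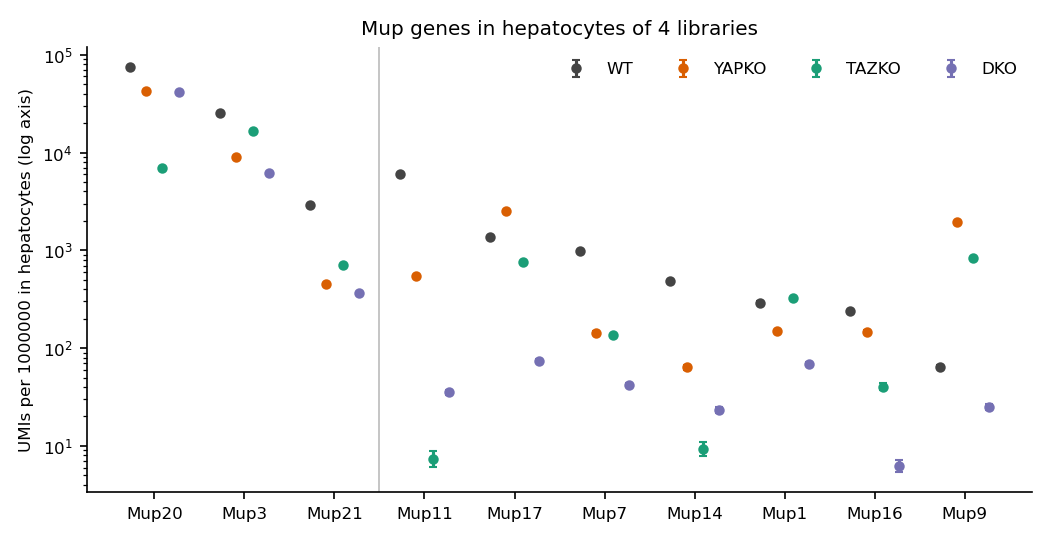
Level of each member in HCs of the 4 libraries, in UMIs per 1000000 on a log axis; points are library values and bars exact 95% Poisson intervals, often smaller than the points. To the left of the line are the 3 members with mostly unique transcripts, to the right the 7 near-identical ones. Mup20 is high in every library except TAZKO, and Mup9 is the member that lies far above WT in YAPKO and TAZKO.

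How far a count can be tied to a single member depends on its sequence. Cell Ranger counts reads that map to 1 gene, and reads that fit several copies equally well are dropped. Of all windows of 90 bases in the last 500 bases of coding transcripts in GENCODE release 21, the share found in no other gene was 100% in Mup3, 91.2% in Mup21 and 90.3% in Mup20. It was 65.2% in Mup17, 42.0% in Mup1, 27.7% in Mup11, 19.8% in Mup7, 18.6% in Mup9, 10.7% in Mup14 and 9.79% in Mup16. These shares pool the transcripts of a gene. Over single transcripts they ran from 0% to 100% in Mup1 and from 0% to 25.3% in Mup9. In Mup14 they ran from 0% to 14.8% and in Mup16 from 0% to 15.8%. These shares depend on the length of the window. With 150 bases they were 83.2% in Mup17, 41.4% in Mup1, 30.5% in Mup11, 26.1% in Mup7, 29.9% in Mup9, 21.1% in Mup14 and 10.8% in Mup16, and 100% in Mup3, Mup20 and Mup21. Mup3, Mup20 and Mup21 are called distinct here and the other 7 near-identical, a split at 90% made after these shares were seen. Levels of the near-identical members are uncertain as to which copy gave the UMIs, and a level compared between members also reflects how much of each transcript is unique. Coding transcripts of the members were 598 to 1033 bases long. The number and sequence of Mup genes also vary between mouse strains, and the strain here was not given.

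Among the distinct members, Mup20 encodes darcin, the male pheromone protein that attracts females. Mup20 (ENSMUSG00000078672) was at 74485 CPM (74363 to 74607) in WT, 42639 (42541 to 42738) in YAPKO, 7018 (6974 to 7061) in TAZKO and 41688 (41616 to 41759) in DKO. It was the most abundant of all genes in HCs of WT, YAPKO and DKO, and ranked 16 in TAZKO. Its log2 ratio was -3.41 (-3.42 to -3.40) in TAZKO, 10.6-fold lower, against -0.80 (-0.81 to -0.80) in YAPKO and -0.84 (-0.84 to -0.83) in DKO. The TAZKO library therefore stood apart from the other knock-out libraries in Mup20.

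Mup3, a gene from the edge of the cluster that also encodes a secreted lipocalin, had another order. Mup3 (ENSMUSG00000066154) was at 25369 CPM (25298 to 25440) in WT, 9051 (9006 to 9096) in YAPKO, 16500 (16434 to 16567) in TAZKO and 6234 (6206 to 6261) in DKO. Its log2 ratio was -1.49 (-1.50 to -1.48) in YAPKO, -0.62 (-0.63 to -0.61) in TAZKO and -2.02 (-2.03 to -2.02) in DKO. TAZKO, which had the least Mup20, thus had the most Mup3 among the knock-out libraries. The Mup3 ratio ranged from -1.29 to -0.19 in TAZKO and from -2.88 to -1.33 in DKO over the alternatives.

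Mup21, at the same edge of the span as Mup3 and Mup20, was low in all knock-out libraries. Mup21 (ENSMUSG00000066153) was at 2890 CPM (2866 to 2915) in WT, 454 (444 to 464) in YAPKO, 706 (692 to 720) in TAZKO and 366 (359 to 373) in DKO. Its log2 ratio was -2.67 (-2.71 to -2.64) in YAPKO, -2.03 (-2.06 to -2) in TAZKO and -2.98 (-3.01 to -2.95) in DKO. Over the alternatives it ranged from -3.46 to -2.31 in YAPKO, -2.79 to -1.52 in TAZKO and -4.00 to -1.96 in DKO. The distinct members together were at 102744 CPM in WT, 52144 in YAPKO, 24224 in TAZKO and 48287 in DKO.

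The near-identical members, which encode urinary proteins of almost the same sequence, were less abundant in sum and ranged more widely in their ratios to WT. Their sum was 9449 CPM (9406 to 9493) in WT, 5510 (5474 to 5545) in YAPKO, 2117 (2093 to 2140) in TAZKO and 275 (270 to 281) in DKO. As a log2 ratio to WT, this sum was at -0.78 in YAPKO, -2.16 in TAZKO and -5.10 in DKO, where the sum was 34.3-fold lower. The low near-identical sum of DKO stood beside a Mup20 level close to that of YAPKO.

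Mup11 was the most abundant of these copies in WT and had the lowest ratios of all members. Mup11 (ENSMUSG00000073834) was at 6012 CPM (5977 to 6047) in WT, 543 (532 to 554) in YAPKO, 7.38 (6.04 to 8.92) in TAZKO and 35.2 (33.1 to 37.3) in DKO. For Mup11 the log2 ratio was -3.47 (-3.50 to -3.44) in YAPKO, -9.67 (-9.96 to -9.40) in TAZKO and -7.42 (-7.50 to -7.33) in DKO. Its level in TAZKO rested on 106 UMIs over all HCs and was 815-fold lower than in WT.

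Mup14 and Mup7 had the same direction with smaller ratios. Mup14 (ENSMUSG00000073830) was at 489 CPM in WT, 63.4 in YAPKO, 9.32 in TAZKO and 23.5 in DKO. Its log2 ratio was -2.95 (-3.04 to -2.86) in YAPKO, -5.71 (-5.97 to -5.47) in TAZKO and -4.38 (-4.49 to -4.27) in DKO. Mup7 (ENSMUSG00000073842) was at 982 CPM in WT, 144 in YAPKO, 135 in TAZKO and 41.9 in DKO. For Mup7 the levels of YAPKO and TAZKO were close, and the log2 ratio was -2.77 (-2.83 to -2.71) in YAPKO, -2.86 (-2.93 to -2.79) in TAZKO and -4.55 (-4.63 to -4.47) in DKO.

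Mup9 had the highest ratios to WT of all members in YAPKO and TAZKO, and a negative one in DKO. Mup9 (ENSMUSG00000078686) was at 64.0 CPM (60.5 to 67.7) in WT, 1939 (1918 to 1960) in YAPKO, 839 (825 to 855) in TAZKO and 25.1 (23.4 to 26.9) in DKO. It was the least abundant member in WT, and its log2 ratio was 4.92 (4.84 to 5) in YAPKO, 3.71 (3.63 to 3.80) in TAZKO and -1.35 (-1.48 to -1.22) in DKO. In folds, Mup9 was 30.3-fold higher in YAPKO, 13.1-fold higher in TAZKO and 2.55-fold lower in DKO. In TAZKO the ratio of Mup9 was 1.11 where HCs needed 10% of their UMIs from the 4 genes of the rule, its lowest value over the alternatives, which otherwise gave 3.37 or more. The levels counted for Mup9 and Mup11 thus moved in opposite directions in YAPKO and TAZKO and in the same direction in DKO. Their printed stretches are 96.1% identical. Both are near-identical copies, so which copy gave these UMIs is uncertain.

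Mup17 followed neither of them. Mup17 (ENSMUSG00000096688) was at 1372 CPM (1355 to 1389) in WT, 2526 (2502 to 2550) in YAPKO, 763 (749 to 777) in TAZKO and 74.6 (71.6 to 77.6) in DKO. Its log2 ratio was 0.88 (0.86 to 0.90) in YAPKO, -0.85 (-0.88 to -0.81) in TAZKO and -4.20 (-4.26 to -4.14) in DKO. The value in YAPKO is above the median of all genes there, and over the alternatives it ranged from 0.20 to 1.22. The value in DKO ranged from -5.11 to -3.02.

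Mup1 and Mup16 were among the less abundant members in WT. Mup1 (ENSMUSG00000078683) was at 292 CPM in WT, 148 in YAPKO, 322 in TAZKO and 68.8 in DKO. Its log2 ratio in TAZKO was 0.14 (0.08 to 0.20), below the median of all genes, and it turned negative under 3 alternatives, with -0.47 as the lowest. Elsewhere the ratio of Mup1 was -0.98 (-1.05 to -0.91) in YAPKO and -2.09 (-2.16 to -2.01) in DKO. Mup16 (ENSMUSG00000078675) was at 238 CPM in WT, 146 in YAPKO, 40.1 in TAZKO and 6.23 in DKO. The Mup16 ratio was -0.70 (-0.77 to -0.63) in YAPKO, -2.57 (-2.69 to -2.44) in TAZKO and -5.25 (-5.47 to -5.05) in DKO. With the 10% rule for HCs, it reached -2.21 in YAPKO and -7.57 in TAZKO.

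Counted against a 2-fold limit, the libraries differed in which members passed. In YAPKO, 5 of 10 members were at least 2-fold lower than WT, against 0.601% of 9313 genes, and 1 member, Mup9, was at least 2-fold higher, against 5.49%. The lower ones were Mup3, Mup7, Mup11, Mup14 and Mup21, and with the 10% rule for HCs 8 members were lower in YAPKO. In TAZKO, 6 of 10 members were at least 2-fold lower, against 1.18% of 9434 genes, and Mup9 alone was at least 2-fold higher, against 21.3%. There the lower ones were Mup7, Mup11, Mup14, Mup16, Mup20 and Mup21, and the alternatives gave 6 to 8. In DKO, 9 of 10 members were at least 2-fold lower, against 1.72% of 10160 genes, and 0 were at least 2-fold higher, against 12.3%. Mup20 was the member of DKO within 2-fold, though its ratio was -1.07 in HCs of 2000 to 10000 UMIs, where 10 members were lower, and -1.02 with the 10% rule. The members were chosen by these same values, so nothing is read from these numbers.

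The family holds 12 other genes with a numbered Mup symbol and 27 pseudogenes. The 12 other genes summed to 491 CPM in WT, 211 in YAPKO, 165 in TAZKO and 71.5 in DKO. In WT, Mup12 (190 CPM) and Mup18 (85.5 CPM) were the most abundant of them and lay above Mup9, the lowest member. Mup12 was at 31.2 CPM in YAPKO, 14.5 in TAZKO and 17.0 in DKO. Of the 12, the number at least 2-fold lower than WT was 4 in YAPKO, 4 in TAZKO and 12 in DKO, and 0 were at least 2-fold higher in any library. Mup10 had the highest ratios, 0.87 (0.49 to 1.26) in YAPKO and 0.62 (0.20 to 1.04) in TAZKO, from 93 UMIs in WT. The pseudogenes summed to 97.9 CPM in WT, 37.7 in YAPKO, 21.4 in TAZKO and 19.3 in DKO.

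The composition of the Mup RNA differed between the libraries. Mup20 made up 66.4% (66.3 to 66.5) of the members' UMIs in WT, 74.0% (73.9 to 74.0) in YAPKO, 26.6% (26.5 to 26.8) in TAZKO and 85.8% (85.8 to 85.9) in DKO. Mup3 made up 22.6% in WT, 15.7% in YAPKO, 62.6% in TAZKO and 12.8% in DKO, and so took the leading place in TAZKO. Mup11, in WT the next most abundant member with 5.36%, fell to 0.942% of the members' UMIs in YAPKO, 0.028% in TAZKO and 0.0724% in DKO. Mup17 made up 1.22% in WT, 4.38% in YAPKO, 2.9% in TAZKO and 0.154% in DKO. Mup9 made up 0.0571% in WT, 3.36% in YAPKO, 3.19% in TAZKO and 0.0517% in DKO, rising from the lowest place in WT to place 3 in TAZKO.

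**Figure D2:**
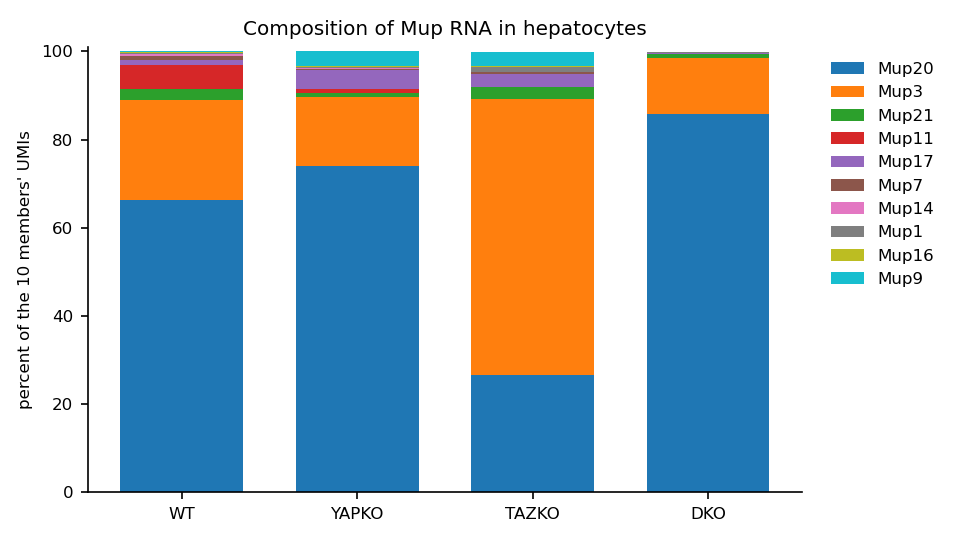
Share of each member in the summed UMIs of the 10 members in HCs of each library, in percent, stacked to 100. Mup20 is the largest part in WT (66.4%), YAPKO (74.0%) and DKO (85.8%), and Mup3 in TAZKO (62.6%).

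The lower sums were seen across most barcodes taken as HCs. For comparison at equal depth, each HC was thinned to 2000 UMIs, which left out 935 HCs of WT, 144 of YAPKO, 1679 of TAZKO and 334 of DKO. The median HC had 11.8% of its UMIs from the members in WT, 5.85% in YAPKO, 2.1% in TAZKO and 4.35% in DKO. From the lowest to the highest decile, the members' share ran from 6.88% to 19.7% in WT, 1.7% to 9.95% in YAPKO, 1.2% to 3.5% in TAZKO and 1.9% to 7.9% in DKO. The share of HCs below the lowest decile of WT was 61.4% (58.3 to 64.4) in YAPKO, 99.2% (98.5 to 99.6) in TAZKO and 83.3% (81.8 to 84.7) in DKO. Above the WT median for the members were 3.25% of HCs in YAPKO, 0% of 1433 in TAZKO and 0.656% in DKO. A count of 0 of 1433 allows a share of up to 0.209%. At this depth the TAZKO HCs were thus nearly separate from those of WT, while the others overlapped with WT. Of the 1319 WT HCs compared, 935 had fewer than 10000 UMIs, with a median mitochondrial share of 0.107%. What these barcodes are was not tested. In HCs of at least 10000 UMIs, thinned to 10000, the median was 10.9% in WT, 6.12% in YAPKO, 2.85% in TAZKO and 4.73% in DKO. The lowest decile of WT there was 5.54% and the highest decile of TAZKO 4.73%.

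The spread between HCs was wider than counting alone gives. The coefficient of variation of the members' summed share was 0.387 in WT, 0.537 in YAPKO, 0.477 in TAZKO and 0.509 in DKO, against 0.0635, 0.0923, 0.148 and 0.104 from Poisson counting. Mup20 varied with a coefficient of 0.429 in WT, 0.646 in YAPKO, 1.16 in TAZKO and 0.566 in DKO. Mup3 varied with 0.41 in WT, 0.614 in YAPKO, 0.408 in TAZKO and 0.897 in DKO. Poisson counting alone gives 0.08, 0.106, 0.313 and 0.111 for Mup20 in the same order of libraries. For Mup3 it gives 0.13, 0.245, 0.185 and 0.308. The library with the highest coefficient, and also the highest from counting, was thus TAZKO for Mup20 and DKO for Mup3.

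**Figure D3:**
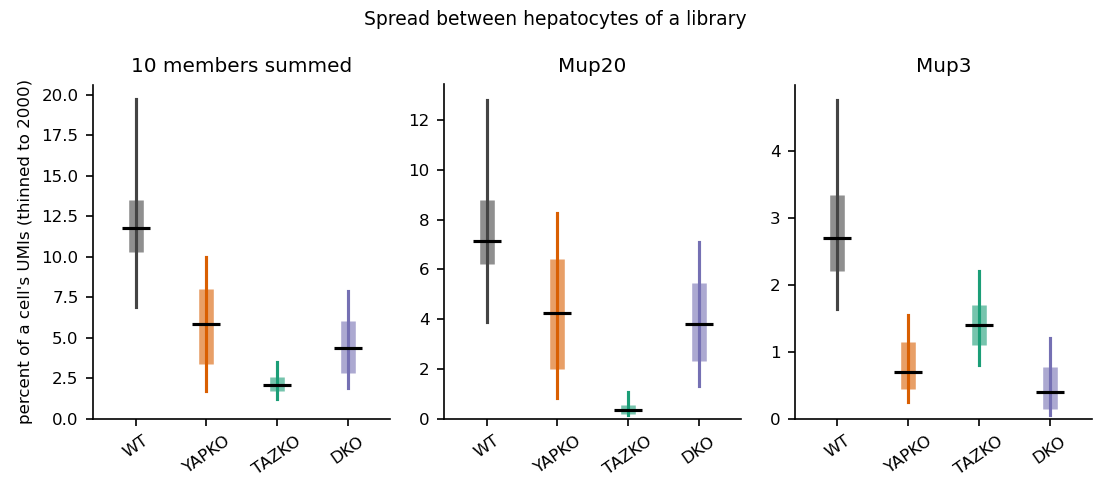
Share of a cell's UMIs from the 10 members, from Mup20 and from Mup3 in HCs thinned to 2000 UMIs, in percent. The dash is the median cell, the thick bar spans the quartiles and the thin line the lowest to the highest decile. The median share of the members is 11.8% in WT and 2.1% in TAZKO.

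Some members went together from cell to cell and others did not. Rank correlations were taken across HCs of 1 library with at least 10000 UMIs, thinned to 10000, a depth chosen after seeing the data, and they are descriptions over cells that share a library. These HCs numbered 384 in WT, 464 in YAPKO, 292 in TAZKO and 995 in DKO. Mup3 and Mup20 correlated with rho 0.65 in WT, 0.47 in YAPKO, 0.66 in TAZKO and -0.15 in DKO. Mup3 and Mup21 correlated with 0.57 in WT, 0.62 in YAPKO, 0.65 in TAZKO and 0.50 in DKO. In HCs thinned to 2000 UMIs, rho was 0.57, 0.43, 0.53 and 0.05 for Mup3 and Mup20 in the same order of libraries, and 0.47, 0.37, 0.22 and 0.32 for Mup3 and Mup21. At both depths Mup3 thus went with Mup21 in each library, and with Mup20 in each except DKO, where the sign of rho depended on depth. Mup7 and Mup11 correlated with 0.79 in WT, 0.70 in YAPKO, 0.08 in TAZKO and 0.31 in DKO, where in the last pair of libraries Mup11 was scarce. Mup9 and Mup17 correlated with 0.86 in YAPKO, where both were abundant, against 0.24 in WT, 0.30 in TAZKO and 0.15 in DKO. In YAPKO, the scarcer Mup11 also correlated with Mup9 (0.79) and with Mup17 (0.83), and at 2000 UMIs with 0.63 and 0.61. Mup7, Mup9, Mup11 and Mup17 are near-identical copies, so UMIs of 1 copy counted for another could enter these correlations. This was not tested. Mup9 and Mup20 correlated with 0.20 in WT, 0.17 in YAPKO, -0.43 in TAZKO and -0.02 in DKO. At 2000 UMIs, rho was 0.60, 0.45, -0.01 and 0.10 for Mup7 and Mup11, 0.04, 0.74, 0.43 and 0.09 for Mup9 and Mup17, and 0.06, -0.01, -0.23 and -0.01 for Mup9 and Mup20. In TAZKO, HCs with more Mup9 thus tended to have less Mup20 at both depths, while in WT and YAPKO the low positive values for this pair were near 0 at 2000 UMIs.

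Position along the lobule was read from zonation genes. Within each library, thinned HCs were ranked by the ratio of 8 pericentral to 8 periportal genes and split into 5 equal bins, which are ranges of a score and not cell types. Pericentral genes summed to 458 CPM in WT, 977 in YAPKO, 2412 in TAZKO and 998 in DKO, and periportal genes to 6384, 8033, 6467 and 7401. Of the 8 pericentral genes, 6 were measured with at least 100 UMIs, and 4 of them in YAPKO, 5 in TAZKO and 4 in DKO were at least 2-fold higher than WT, against 5.49%, 21.3% and 12.3% of all genes, with 0 lower. Of the 8 periportal genes, 0 passed 2-fold in YAPKO, 1 (Hal) was higher in TAZKO, and in DKO 1 (Sds) was higher and 2 (Cyp2f2 and Ctsc) were lower. The score held almost no pericentral UMIs at its periportal end, with 0, 0.00758 and 0.144 per cell in the first 3 bins of WT and 0, 0.00493 and 0.167 in those of YAPKO, so the order of these bins was set by periportal genes. The first 4 bins of TAZKO had 0.394, 3.52, 6.2 and 8.05 per cell and the last bin of WT 3.72, so bins of the same number cover different ranges of the score, and courses over the bins are not matched in position between libraries. The bins also differed in depth: before thinning, the median HC had 12408.5 UMIs in the most periportal and 2596 in the most pericentral bin of WT, and 19638 and 3343 in those of TAZKO. The part of depth in the gradients was not tested beyond the deep HCs given with them.

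Mup17 was highest in the most pericentral bin in every library, with different courses before it. From the periportal to the pericentral end, its level in the 5 bins of WT was 947, 1324, 1470, 2072 and 4194 CPM, and in TAZKO 214, 592, 786, 955 and 1416. In YAPKO it was 1576, 1611, 1581, 1079 and 7800 CPM, and in DKO 62.6, 52.1, 47.3, 59.8 and 107. Mup17 was thus higher in each bin of WT and TAZKO than in the bin before, while in YAPKO and DKO the last bin alone stood above the rest. The log2 ratio of the last to the first bin for Mup17 was 2.15 (2.01 to 2.29) in WT, 2.31 (2.18 to 2.43) in YAPKO, 2.72 (2.45 to 3.01) in TAZKO and 0.77 (0.32 to 1.24) in DKO. In HCs of at least 10000 UMIs, the 5 bins of TAZKO had 149, 229, 209, 174 and 2302 CPM and those of WT 323, 516, 630, 766 and 3196, so at this depth the steps before the last bin were small in TAZKO. The median HC of this depth had 0.02% of its UMIs from Mup17 in TAZKO and 0.03% in WT, against means of 0.061% and 0.108%. Few HCs thus carried much of the Mup17 level.

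Mup9 was also highest in the last bin of every library. Its 5 bins had 152, 815, 1118, 1212 and 1736 CPM in TAZKO, and 16.4, 17.4, 21.2, 26.1 and 35.7 in DKO. In WT they had 64.4, 72.0, 102, 75.8 and 116 CPM. In YAPKO the course was another, with 1852, 1438, 1111, 941 and 4047 CPM, so Mup9 fell over the first 4 bins there and was higher in the last. For Mup9 the log2 ratio of the ends was 0.85 (0.22 to 1.5) in WT, 1.13 (1.00 to 1.25) in YAPKO, 3.52 (3.20 to 3.85) in TAZKO and 1.12 (0.26 to 2.05) in DKO. The ratio in WT was 0.51 (-0.14 to 1.17) with Cyp2e1 against Cyp2f2 alone, where bin 3 was the highest at 102 CPM. At 2000 UMIs many HCs tied in the score of this pair of genes, with a median of 0.00 in bins 4 and 5 of WT. Ties were ordered at random, so these bins are partly a random split. In deep HCs of TAZKO, the 5 bins had 35.6, 59.3, 169, 222 and 2200 CPM of Mup9, beside 29.9 in the most periportal bin of WT. Over all deep HCs of TAZKO, the median cell had 0.01% of its UMIs from Mup9 and the mean was 0.0534%. The highest decile began at 0.07%, so few HCs carried much of the level, and 2200 CPM is not that of a typical cell. With Cyp2e1 against Cyp2f2 alone, the most periportal deep HCs had 84.7 CPM in TAZKO and 32.5 in WT, so how close the libraries were at this end depended on the genes of the score. In deep HCs of YAPKO, Mup9 showed no such fall, with 1565, 1920, 1608, 1653 and 3725 CPM.

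Mup20 was lowest in the last bin of every library, and its course over the other bins differed. In TAZKO its 5 bins had 11458, 4678, 3186, 3376 and 2871 CPM, so most of the difference lay between the first bin and the next. In YAPKO they had 40197, 49894, 50202, 55140 and 26800 CPM, a rise over the first 4 bins before the low last one. In DKO they had 42991, 48331, 46007, 38973 and 25992 CPM, with the highest level in bin 2. In WT they had 76222, 85580, 85436, 79574 and 63418 CPM. For Mup20 the log2 ratio of the ends was -0.58 (-0.62 to -0.55) in YAPKO, -2 (-2.08 to -1.92) in TAZKO and -0.73 (-0.75 to -0.70) in DKO. The ratio in WT was -0.27 (-0.29 to -0.24) and became 0.04 with Cyp2e1 against Cyp2f2 alone and 0.34 with these in deep HCs, so no direction is read from it. With the same genes in deep HCs, the ratio in YAPKO was -0.11. In deep HCs of TAZKO, the 5 bins had 13356, 12763, 10510, 5479 and 1916 CPM of Mup20, a later fall than in all HCs. Those of YAPKO had 37937, 57572, 46737, 48688 and 24721 CPM, with no steady rise over the first 4 bins. Every bin of TAZKO was far below every bin of WT for Mup20.

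Mup3 fell along the score in the knock-out libraries. Its 5 bins had 9724, 9190, 8697, 7392 and 6645 CPM in YAPKO, and 7005, 5473, 4902, 4794 and 4126 in DKO. In TAZKO they had 20699, 14181, 12760, 13052 and 12619 CPM, with most of the fall after the first bin, as for Mup20. In deep HCs of TAZKO they had 22293, 22305, 20205, 16828 and 10866 CPM, so at this depth the fall of Mup3 came later. For Mup3 the log2 ratio of the ends was -0.55 (-0.62 to -0.48) in YAPKO, -0.71 (-0.76 to -0.67) in TAZKO and -0.76 (-0.82 to -0.71) in DKO. In WT it was -0.03, and it was positive with Cyp2e1 against Cyp2f2 (0.32), in deep HCs (0.13) and with both changes (0.79). Mup11 was higher in each bin of WT than in the bin before, with 5672, 7644, 8375, 10023 and 10226 CPM, while in YAPKO it had 446, 379, 320, 222 and 867, the course that Mup9 had there. Mup9 and Mup11 are near-identical copies, and how far their UMIs were told apart was not tested. In deep HCs of YAPKO, Mup11 had 465, 553, 488, 358 and 1015 CPM, with no steady fall. Those of WT had 3029, 5223, 5392, 5300 and 6628 CPM, so at this depth Mup11 did not rise at every step. In TAZKO, Mup11 was too scarce for a gradient, with a ratio of 0.01 (-2.11 to 2.12).

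**Figure D4:**
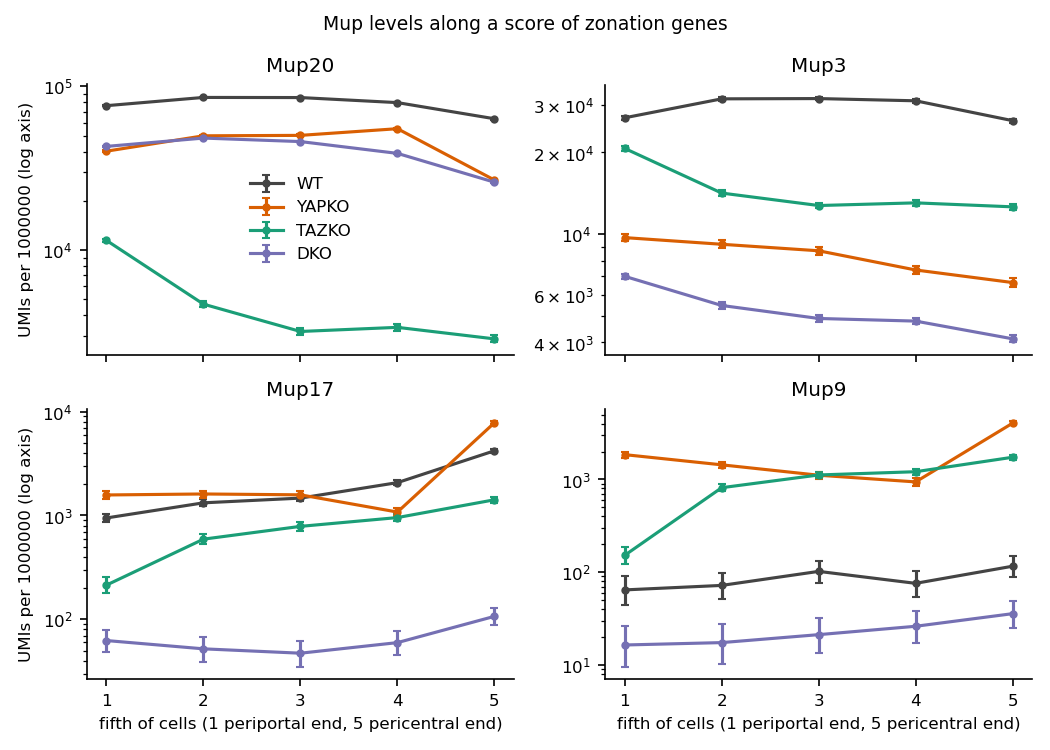
Level of Mup20, Mup3, Mup17 and Mup9 in 5 equal bins of HCs from the periportal to the pericentral end of a score, in UMIs per 1000000 on a log axis, with exact 95% Poisson intervals. Mup17 is highest in the last bin of every library, in YAPKO and DKO without a rise before it, and in TAZKO Mup9 rises from 152 to 1736 while Mup20 falls from 11458 to 2871.

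Mup RNA was also found in barcodes that are not HCs. B cells, taken as barcodes with at least 2 UMIs of B cell markers and under the 3% rule, had 6196 CPM of the members in WT, 841 in YAPKO, 1626 in TAZKO and 821 in DKO. Relative to the 4 genes of the rule, the members had 1.51 UMIs per UMI in B cells of WT, 0.854 in YAPKO, 0.319 in TAZKO and 0.537 in DKO, close to the 1.28, 0.74, 0.329 and 0.684 in HCs. The proportion of the sum, which Mup20 and Mup3 carry, to these HC genes was thus of similar size inside and outside the HCs of a library, but single members differed. In B cells of YAPKO, Mup17 was at 140 CPM beside 429 of Mup20, and in its HCs at 2526 beside 42639. Subtracting the B cell level left the summed ratio to WT at -0.90 in YAPKO, -2.10 in TAZKO and -1.15 in DKO.

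Shares of cells with a UMI carry this background. Mup20 was seen in 100% of HCs of WT, YAPKO and DKO and 98.6% of TAZKO with all UMIs, and after thinning to 2000 UMIs in 100% of WT, 99.8% of YAPKO, 97.8% of TAZKO and 100% of DKO. B cells, which should lack the gene, had Mup20 in 97.4%, 52.6%, 56.7% and 39.4% of WT, YAPKO, DKO and TAZKO after the same thinning. The median depth of B cells was 3142 UMIs in WT, 3343 in YAPKO, 2926 in TAZKO and 2715 in DKO. A UMI of Mup20 therefore does not mark a cell that expresses it. Mup9 was seen in 27.2% of HCs of WT, 76.1% of YAPKO, 81.7% of TAZKO and 16.2% of DKO, and after thinning in 15.0%, 59.6%, 67.1% and 4.13%. In thinned B cells Mup9 was seen in 1.2% in WT, 9.25% in YAPKO, 19.8% in TAZKO and 0% of 395 in DKO, which allows up to 0.759%. Mup11 was seen in 99.2% of HCs of WT, 58.4% of YAPKO, 2.96% of TAZKO and 17.4% of DKO, and after thinning in 92.6%, 36.7%, 1.67% and 5.21%. For Mup11 the thinned B cells had 63.7% in WT, 5.82% in YAPKO, 0% of 566 in TAZKO, which allows up to 0.53%, and 0.253% in DKO. For Mup9 and Mup11 the shares in HCs lay above those in B cells of the same library.

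Depth within the HCs was examined in the same way. HCs under 2000 UMIs had a median mitochondrial share of 0.123% in WT, 0.117% in YAPKO, 0.324% in TAZKO and 0.467% in DKO, and those of at least 10000 UMIs had 3.69%, 4.39%, 4.8% and 3.23%. Mup20 in the deep HCs was at 72424 CPM in WT, 42014 in YAPKO, 9571 in TAZKO and 42350 in DKO, and in the shallow ones at 70192, 32588, 3517 and 29825. Mup9 was at 53.9 CPM in deep HCs of WT, 1993 in YAPKO, 582 in TAZKO and 25.7 in DKO. Mup11 was at 4811 CPM in deep HCs of WT, 567 in YAPKO, 7.01 in TAZKO and 37.6 in DKO. The order of the libraries for Mup9, Mup11 and Mup20 in the deep HCs was that of all HCs, except that DKO and YAPKO, which are close in Mup20, changed places. In deep HCs the summed ratio was -0.88 in YAPKO, -1.78 in TAZKO and -1.08 in DKO. In barcodes under 500 genes, the 4 genes of the rule made up 6.1% of UMIs in WT and 4.12% in YAPKO. They made up 5.67% in TAZKO and 2.79% in DKO. The 3% rule therefore does not by itself set HCs apart from such barcodes. What the shallow barcodes with few mitochondrial UMIs are was not tested.

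**Figure D5:**
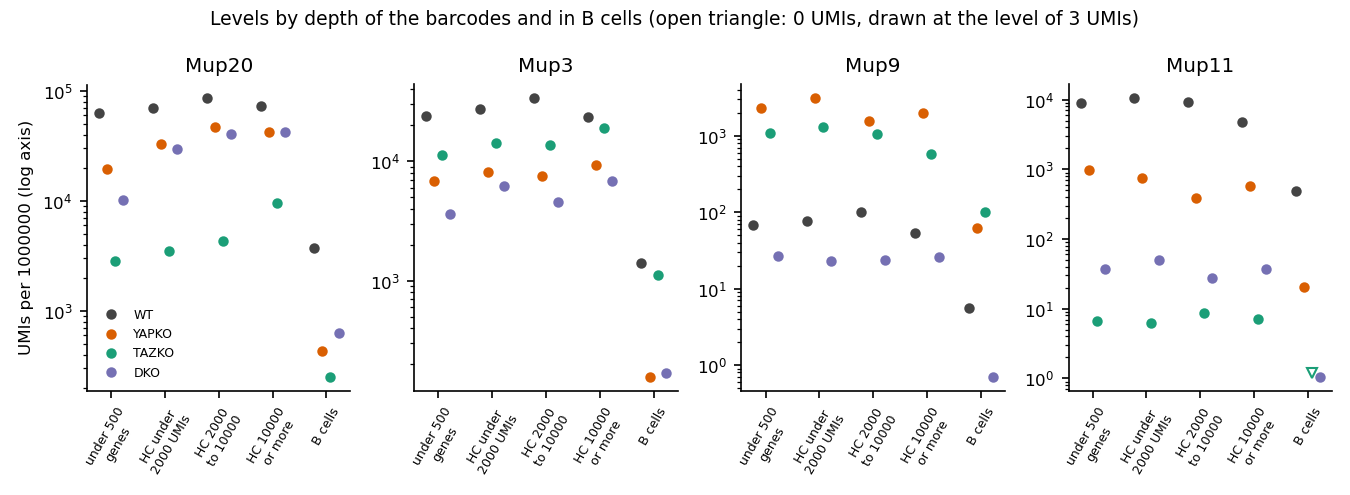
Level of Mup20, Mup3, Mup9 and Mup11 in barcodes under 500 genes, in HCs by depth and in B cells, in UMIs per 1000000 on log axes that differ between panels; the open triangle stands for 0 UMIs, drawn at the level of 3. In every class of barcodes shown, Mup9 is higher in YAPKO and TAZKO than in WT and Mup11 is highest in WT.

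Other genes of the same setting were described from lists, with at least 100 UMIs over both libraries as measured. Of all measured genes, 0.601% in YAPKO, 1.18% in TAZKO and 1.72% in DKO were at least 2-fold lower than WT, 5.49%, 21.3% and 12.3% were at least 2-fold higher, and the median log2 ratio was 0.40, 0.61 and 0.46. Of the growth hormone and STAT5 axis, 12 of 13 genes were measured, with medians of 0.60 in YAPKO, 0.69 in TAZKO and 0.34 in DKO. At least 2-fold lower were Socs2 and Onecut1 in YAPKO, Cish in TAZKO and Onecut1 in DKO. At least 2-fold higher were Stat5a, Socs3 and Bcl6 in YAPKO, these and Prlr in TAZKO, and Socs3, Bcl6 and Prlr in DKO. Genes that STAT5 induces went different ways: Igf1 was at 778 CPM in WT, 777 in YAPKO, 1062 in TAZKO and 1333 in DKO, and Cish at 10.8, 15.6, 4.31 and 10.4. Socs2, another of them, was at 26.2 CPM in WT, 24.2 in TAZKO and 18.4 in DKO, and its log2 ratio in YAPKO was -1.39. Bcl6, a repressor that opposes STAT5, was at 7.35 CPM in WT, 18.8 in YAPKO, 56.6 in TAZKO and 31.6 in DKO.

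All 12 male-biased liver genes of the list were measured, with medians of -0.62 in YAPKO, -0.18 in TAZKO and -0.83 in DKO, beside the members' -1.23, -2.30 and -3.59. At least 2-fold lower were 3 in YAPKO (Elovl3, Hsd3b5 and Gstp1), 1 in TAZKO (Selenbp2) and 5 in DKO (Cyp7b1, Elovl3, Hsd3b5, Ugt2b38 and Selenbp2), and Slco1a1 in TAZKO was the gene at least 2-fold higher. Selenbp2, a selenium-binding protein gene, was at 801 CPM in WT, 500 in YAPKO, 29.7 in TAZKO and 15.0 in DKO. Elovl3, a fatty acid elongase gene, was at 245 CPM in WT, 107 in YAPKO, 399 in TAZKO and 11.8 in DKO, so male-biased genes did not share an order of libraries. The 13 female-biased liver genes summed to 0.104 CPM in WT, 0.532 in YAPKO, 0.974 in TAZKO and 5.44 in DKO, with none measured. Of 5 genes expressed from the sex chromosomes, 4 were measured, with medians of 0.43 in YAPKO, 1.22 in TAZKO and 0.52 in DKO, and 3 of them (Ddx3y, Kdm5d and Uty) were at least 2-fold higher in TAZKO and 0 elsewhere, with 0 lower. The Y-linked Ddx3y was at 49.6 CPM in WT, 70.0 in YAPKO, 111 in TAZKO and 76.8 in DKO, and Xist, which is made from an inactive X, had 0, 3, 2 and 5 UMIs. The values of Xist and Ddx3y were those of male cells in every library.

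Among 11 other lipocalins, 9 were measured in YAPKO, 9 in TAZKO and 10 in DKO, with medians of -0.23, -0.63 and -0.16. At least 2-fold lower were Obp2a in YAPKO, Lcn2, Ptgds, Orm1 and Orm2 in TAZKO and Obp2a in DKO, and at least 2-fold higher were Lcn2 in YAPKO and Lcn2 and Ptgds in DKO. Obp2a, an odorant-binding lipocalin gene, was at 21.7 CPM in WT, 4.61 in YAPKO, 14.0 in TAZKO and 0.922 in DKO. Rbp4, the gene of the retinol carrier, was at 6166 CPM in WT, 5258 in YAPKO, 3988 in TAZKO and 6159 in DKO. Of 16 other plasma protein genes, all measured, 0 in YAPKO, 1 (Fgb) in TAZKO and 3 (Fga, Fgb and Fgg, the fibrinogen chains) in DKO were at least 2-fold lower and 0 were higher, with medians of -0.13, -0.18 and -0.33. Of 14 acute phase genes, all measured, 0 in YAPKO, 6 in TAZKO and 3 in DKO were at least 2-fold lower, and 3, 1 and 0 higher, with medians of 0.21, -0.82 and -0.61. Of 19 liver transcription factors and nuclear receptors, 18 were measured in YAPKO, 18 in TAZKO and 19 in DKO, with medians of 0.49, 0.81 and 0.50. None of the measured ones was at least 2-fold lower, and 2 in YAPKO, 7 in TAZKO and 6 in DKO were at least 2-fold higher, on the background of all genes given above. Hnf4a, a main regulator of HC genes, was at 130 CPM in WT, 218 in YAPKO, 247 in TAZKO and 149 in DKO.

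Among 2790 genes outside the family with at least 500 UMIs in HCs of every library, those most like the summed members were sought. By the median over the 4 libraries of the rank correlation across HCs thinned to 2000 UMIs, the highest was Apoa1, a gene of the HC rule that encodes the main protein of high-density lipoprotein, with 0.37. Clu and Apoe had 0.28, and Hpx had 0.27. Next were Mgst1, Rbp4, Serpina1e, Bhmt, Orm1 and Serpinc1, with 0.19 to 0.21. The lowest was Rgn, a pericentral gene, with -0.22, followed by Thrsp, Gstm5, Rplp1 and CT010467.1. All these medians were low and the libraries differed. For Apoa1 the correlation ranged from 0.08 in TAZKO to 0.47 in DKO, Serpina1e had -0.17 and Bhmt -0.11 in DKO, and Clu had 0 in WT. By the 3 log2 ratios to WT, Orm1, the gene of the lipocalin orosomucoid, was nearest to the summed members, with -0.84 in YAPKO, -1.71 in TAZKO and -0.97 in DKO at a distance of 0.469. Gm35696, Nlrp12, Cpb2 and Hp followed at distances from 1.06 to 1.25.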

How the data were processed

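Livers of 4 mice, 1 per genotype, were profiled by 10x 3′ single-cell RNA-seq. Reads had been aligned to mm10 by the authors, who used Cell Ranger and deposited raw UMI counts for each gene and barcode. The submitters' notes give version 6.0.1 and the matrix headers 4.0.0. Doublets were kept and no caller was run.

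Members were found by gene symbol. Calculations used Python 3.11.15, numpy 2.4.6, scipy 1.17.1, pandas 2.3.3, Biopython 1.88 and matplotlib 3.10.9, and intervals were tested on simulated data. Coordinates and transcripts came from GENCODE release 21 and promoters from RefSeq GRCm38.p6. A count of 0 was given 3 counts as its limit, in levels and in shares. Motifs were searched on both strands. Identity was taken from global alignments with free ends.

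Members and lists were chosen with earlier results of these data known. The genes named are the members, the other numbered Mup genes, Yap1 and Wwtr1, genes of 18 lists, and the genes most like the summed members: the 10 highest and 5 lowest by median correlation and the 5 nearest by ratios. The split into distinct and near-identical members, TATATAAG, the printed stretches and the use of HCs with at least 10000 or 20000 UMIs or at least 1% mitochondrial UMIs were chosen after seeing the data. Alternatives covered limits, scaling, depth, background and zonation genes.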

Additional observations from a re-analysis of the deposited data

Results flagged for a closer look

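Barcodes with fewer than 500 genes are outside the HCs and none of the ratios to WT above rests on them, yet Mup RNA differed between libraries there as well, as the plot of levels by depth shows for 4 members. Of 33 ratios to WT looked at in these barcodes, 3 lay above the WT level beyond counting error, and the other 30 were negative. The summed members had a log2 ratio of -1.58 in YAPKO, -2.62 in TAZKO and -2.86 in DKO there, lower than in HCs, and Mup1 in TAZKO had -0.72. The log2 ratio of Mup9 was 5.11 (4.94 to 5.28) in YAPKO, from 67.5 CPM in WT to 2329. In TAZKO the ratio of Mup9 was 4.03 (3.87 to 4.19), at 1099 CPM. Mup17 had a ratio of 0.51 (0.46 to 0.57) in YAPKO, from 2958 CPM in WT to 4223. Mup9 and Mup17 were also higher than WT in HCs of YAPKO, and Mup9 in those of TAZKO, where Mup1 was at 0.14. WT had 6237 such barcodes, YAPKO 941, TAZKO 5465 and DKO 676. No replicate stands behind these differences, and their cause was not tested.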

How the results depend on the processing

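With 1 library per genotype, no result has a replicate check, and counting intervals leave out differences between mice, dissociation and loading. No paired analysis was possible because each genotype has 1 library. Near-identical members cannot be told apart from their UMIs with certainty. Shallow HCs with few mitochondrial UMIs and free RNA differ between the libraries, as does HC depth, so genotype and library quality cannot be told apart.

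The summed ratio to WT kept its direction under every alternative run. In the order YAPKO, TAZKO and DKO, against -0.96, -2.09 and -1.21, it was -1.04, -2.47 and -1.46 with limits of 500 to 6000 UMIs, and -1.27, -1.74 and -1.19 with the 10% rule for HCs. With up to 20% mitochondrial UMIs it was -0.95 in YAPKO and -1.20 in DKO. With at most 2 UMIs of other cell types it was -1, -2.13 and -1.26, and between 2000 and 10000 UMIs -1.20, -2.71 and -1.59. Scaled to UMIs outside the Mup family it was -1.05, -2.22 and -1.31, scaled to the 4 genes of the HC rule -0.79, -1.96 and -0.91, as a mean over cells -1.07, -2.47 and -1.42, and with the B cell level subtracted -0.90, -2.10 and -1.15. Alternatives chosen after seeing the data gave -0.88, -1.78 and -1.08 from 10000 UMIs, -0.84, -1.66 and -1.01 from 20000 UMIs, and -0.81, -1.83 and -1.03 with at least 1% mitochondrial UMIs.

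In TAZKO, 7 members in place of 6 were at least 2-fold lower with 500 to 6000 UMIs, with the 10% rule and as a mean over cells, and 8 between 2000 and 10000 UMIs, where 10 in place of 9 were lower in DKO. In YAPKO, 6 or 7 in place of 5 were lower under 5 alternatives, and 8 members were with the 10% rule. There, 2 in place of 1 were at least 2-fold higher from 10000 and from 20000 UMIs, with at least 1% mitochondrial UMIs, scaled to the 4 genes, and with the B cell level subtracted. With a minimum of 20 UMIs, 1.52% of all genes were lower and 8.53% higher in YAPKO, and 1.92% in TAZKO and 2.73% in DKO were lower.

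Of 360 alternative values for single members, 3 changed sign where the interval of the first value left out 0. Mup1 in TAZKO went from 0.14 to -0.47 with 500 to 6000 UMIs, to -0.35 between 2000 and 10000 UMIs and to -0.35 as a mean over cells. Of 118 values for the ratio of the pericentral to the periportal end, 9 changed sign in the same way. In WT, Mup3 went from -0.03 to 0.32 and Mup20 from -0.27 to 0.04 with Cyp2e1 against Cyp2f2, and Mup3 to 0.13 in deep HCs. In deep HCs of TAZKO, Mup7 went from 0.86 to -0.25. Cyp2e1 against Cyp2f2 in deep HCs, a pair of changes made together and chosen after seeing the data, gave 0.79 for Mup3 and 0.34 for Mup20 in WT, 0.01 in place of -0.47 for Mup21 in YAPKO, -0.18 for Mup7 in TAZKO and 0.08 in place of -1.55 for Mup14 in DKO. Another 4 changed sign where the interval held 0, all in DKO: Mup7 went from -0.07 to 0.91 in deep HCs, and Mup16 from -0.58 to 0.18 in deep HCs, 0.20 with Cyp2e1 against Cyp2f2 and 0.79 with both. The cause was not tested. At 2000 UMIs many HCs tied in Cyp2e1 against Cyp2f2 and were ordered at random, which limits this alternative as a check. Of 44 shares of cells with a UMI at 1000 in place of 2000 UMIs, 34 moved beyond their interval.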
